A study of Mus musculus with 80 samples.

Results

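The respiratory chain genes were all probes of the array whose gene symbol names a subunit of complexes I to V of oxidative phosphorylation, that is Nduf genes with a subunit letter and number, Sdh genes, Uqcr genes, Cox genes of families 4 to 8 and Atp5 genes. They comprised 98 of 25697 probes and, with the probe of highest mean signal kept for each gene, 79 of 16593 named genes. Complex I was represented by 34 genes, complex II by 3, complex III by 8, complex IV by 18 and complex V by 16. Of the 79 genes, 65 had 1 probe and 14 had several. One of them, Ndufs5-ps, carries the symbol of a pseudogene and was kept because the symbol fits. Sdha, Ndufa11, Ndufb1 and Ndufa4l2 were not analysed here.

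The respiratory chain of the inner mitochondrial membrane passes electrons from NADH through complex I, and from succinate through complex II, by way of ubiquinone to complex III, cytochrome c and complex IV, where oxygen is reduced. Complexes I, III and IV pump protons, and complex V, the ATP synthase, uses the proton gradient to make ATP. Kidney tubules, above all the proximal tubule and the thick ascending limb, are rich in mitochondria because sodium reabsorption consumes ATP, and several complex IV subunits exist as isoforms with their own tissue pattern, such as those of heart and skeletal muscle and of brown fat.

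Adult female BALB/c nude mice were given the α-emitter 211At into the tail vein, and the liver, spleen, lungs and the dissected cortex and medulla of the kidney were collected. The groups were 1.7 kBq with killing at 1 h, 6 h or 7 days (n = 3 mice each), 105 kBq at 1 h (n = 2), 7.5 kBq at 6 h (n = 2) and mock-treated controls at 24 h (n = 3). The study asked how transcription in normal tissues depends on injected activity, dose rate and time. Each tissue had 16 arrays, and the time since injection differed between the controls and every exposed group, so exposure and time since injection cannot be told apart in those comparisons. Nude mice lack a functional thymus, and all groups, controls included, share this background. The labels do not say which tissues came from the same animal.

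The values are log2 of the quantile-normalised signal, and only values of the same probe were compared between samples. A signal was taken as above background when it exceeded 115.9, or 6.86 on the log2 scale, and 54.8% of all values did. The number of arrays limits the precision. Arrays of the same group correlated with r between 0.78 and 0.99 over all probes. The array labelled kidney medulla 1.7 kBq 7 d replicate 1 stood apart, with a mean correlation of 0.98 with the liver arrays and 0.79 with the other medulla arrays, and a mean log2 signal of 13.16 over 13 hepatocyte genes against at most 8.11 in the rest of the tissue. Hepatocyte genes were also raised in kidney cortex 7.5 kBq 6 h replicate 1 (11.68, others at most 8.05), and exocrine pancreas genes in spleen 1.7 kBq 7 d replicate 1 (12.97, others at most 7.38). Smaller rises of such genes appeared in 2 lung arrays, namely hepatocyte genes in 105 kBq 1 h replicate 2 (8.19) and proximal tubule genes in 7.5 kBq 6 h replicate 1 (9.29). None of these arrays is a control array, and the comparisons of their groups with the controls are also given without them. Control arrays still differed in marker genes of fat and heart muscle. The control SD was 1.63 in cortex for Cidea, a brown fat gene, and 1.59 in lungs for Myl7, a heart muscle gene.

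Promoter sequence was taken from RefSeq (GRCm38.p6) for 64 of the 79 genes, as 69 windows from 250 bases before to 50 after the transcription start. Motifs of 4 regulators known for nuclear-encoded respiratory genes were searched on both strands. The NRF1 motif GCGCATGCG was in 10.1% of the windows of these genes (7 of 69) and in 1.75% of all 32851 windows. The ETS family motif CCGGAAG was in 23.2% (16 of 69) against 8.86%, the YY1 motif AAGATGGCG in 10.1% (7 of 69) against 1.4%, and the ERR motif NNAAGGTCA in 10.1% (7 of 69) against 4.68%. These are letter matches and say nothing of binding. The 250 bases before the start are shown for 1 member of each complex with a match there and for Cox8b, an isoform gene of the results below, which had none. Capitals mark the matches, all sequences run 5′ to 3′ on the minus strand of the genome, and a motif on the opposite strand appears as its reverse complement, such as CTTCCGG for ETS. Ndufb6 lies at chr4:40279422-40279671, Sdhd at chr9:50603850-50604099, Uqcrh at chr4:116075071-116075320, Cox6a1 at chr5:115348959-115349208, Atp5g3 at chr2:73911327-73911576 and Cox8b at chr7:140900447-140900696.
Ndufb6: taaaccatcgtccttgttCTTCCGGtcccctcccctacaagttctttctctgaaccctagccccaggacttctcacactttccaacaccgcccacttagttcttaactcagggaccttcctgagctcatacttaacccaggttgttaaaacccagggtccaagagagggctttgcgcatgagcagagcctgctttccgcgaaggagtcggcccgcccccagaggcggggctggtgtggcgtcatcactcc
Sdhd: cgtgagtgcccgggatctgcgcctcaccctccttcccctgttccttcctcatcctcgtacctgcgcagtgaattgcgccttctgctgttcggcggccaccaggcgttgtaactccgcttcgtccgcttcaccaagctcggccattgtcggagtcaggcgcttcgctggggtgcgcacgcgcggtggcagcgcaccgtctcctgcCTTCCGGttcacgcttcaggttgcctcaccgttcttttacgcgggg
Uqcrh: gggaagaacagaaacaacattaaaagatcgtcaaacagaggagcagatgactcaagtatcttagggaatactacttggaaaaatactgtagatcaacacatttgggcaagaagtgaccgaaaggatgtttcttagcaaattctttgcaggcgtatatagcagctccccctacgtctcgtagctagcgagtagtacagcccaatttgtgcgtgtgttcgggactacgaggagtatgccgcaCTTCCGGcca
Cox6a1: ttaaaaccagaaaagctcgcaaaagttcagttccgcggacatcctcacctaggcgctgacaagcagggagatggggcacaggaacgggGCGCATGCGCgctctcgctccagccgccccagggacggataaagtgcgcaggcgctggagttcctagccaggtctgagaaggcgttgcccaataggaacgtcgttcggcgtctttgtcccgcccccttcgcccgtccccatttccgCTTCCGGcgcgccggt
Atp5g3: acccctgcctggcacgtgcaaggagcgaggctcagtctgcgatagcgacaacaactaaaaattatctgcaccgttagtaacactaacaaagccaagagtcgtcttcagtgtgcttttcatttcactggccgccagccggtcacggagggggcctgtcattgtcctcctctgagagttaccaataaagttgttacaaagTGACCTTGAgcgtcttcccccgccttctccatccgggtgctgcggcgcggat
Cox8b: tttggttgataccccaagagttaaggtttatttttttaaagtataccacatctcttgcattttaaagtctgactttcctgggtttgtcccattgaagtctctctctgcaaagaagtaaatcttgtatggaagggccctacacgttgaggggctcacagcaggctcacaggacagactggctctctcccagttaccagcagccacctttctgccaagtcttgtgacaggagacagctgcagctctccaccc
Among these windows, Cox6a1 held 2 overlapping NRF1 matches, 1 on each strand, at positions -162 to -153 and an ETS match at -16 to -10. The ETS match lay at -232 to -226 in Ndufb6, at -46 to -40 in Sdhd and at -10 to -4 in Uqcrh, and the ERR match of Atp5g3 at -52 to -44.

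In the control animals, the respiratory chain genes were highest in both parts of the kidney, intermediate in the liver and lowest in the spleen and lungs. Of the 71 genes above background in all 5 control tissues, both kidney parts exceeded the liver, lungs and spleen in 63. The highest mean was in kidney medulla for 33 genes, in kidney cortex for 32, in the liver for 4, in the spleen for 2 and in the lungs for 0, and the lowest mean was in the lungs for 54. The liver exceeded the lungs in 62 genes and the spleen in 54, and the spleen exceeded the lungs in 60. Of the other 8 genes, Cox4i2, Cox6a2, Cox8b and Uqcrfs1 were above background in some control tissues, and the probes of Cox7b2, Cox8c, Ndufs1 and Uqcrq in none. The span from the lowest to the highest tissue mean had a median of 1.43 on the log2 scale and ranged from 0.46 to 3.25. In bulk tissue, fewer cells of a type and less RNA per cell cannot be told apart, so these are levels per amount of tissue RNA.

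**Figure D1:**
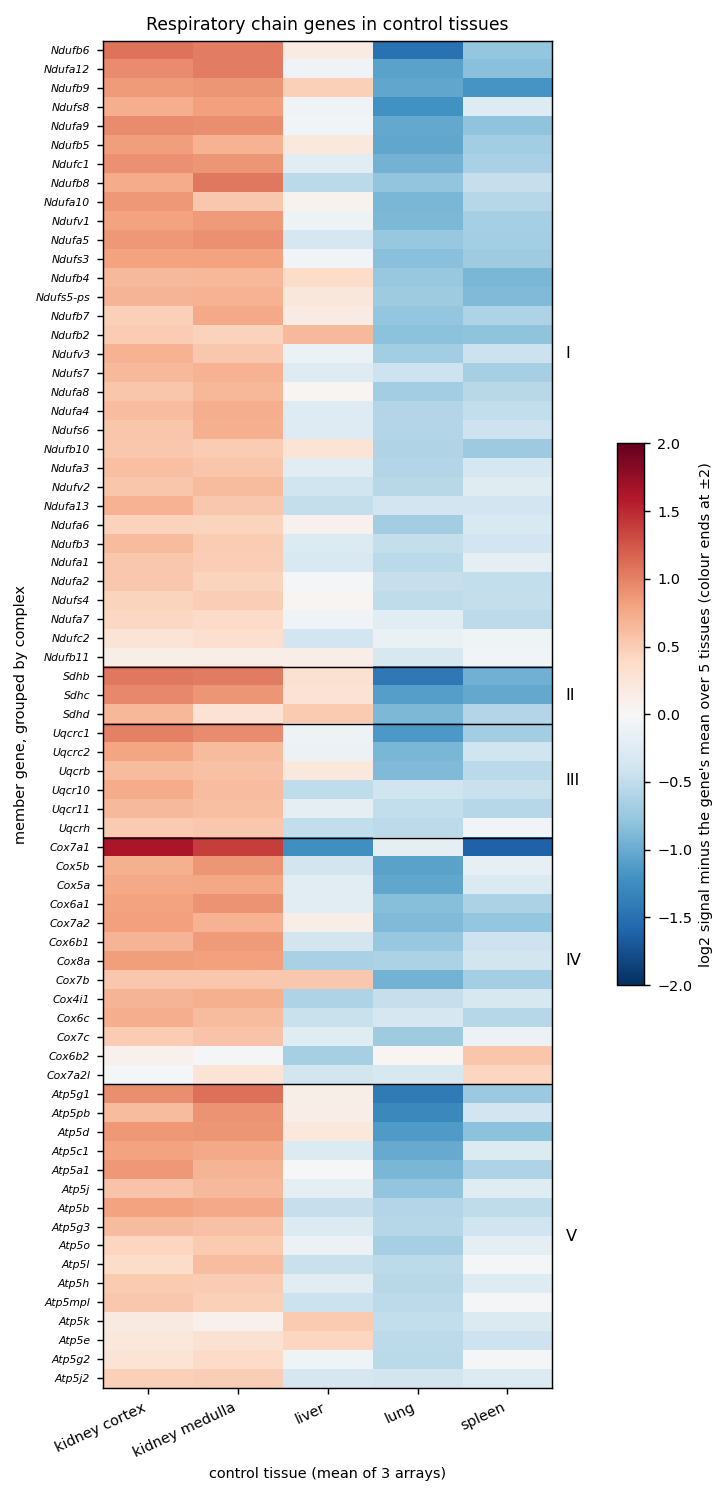
Each row is 1 of the 71 respiratory chain genes above background in all 5 control tissues, ordered by complex, and colour gives the mean log2 signal of 3 control arrays minus the gene's mean over the tissues, with the colour scale ending at 2. Both kidney columns are above the other tissues in 63 of 71 rows, and the lung column is the lowest in 54.

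Calls, here and below, required both a limma p under 0.01 after Benjamini-Hochberg adjustment over all kept probes and a difference of 1.5-fold or more. In the control tissues 18678 probes were tested, 76 respiratory chain genes among them. The 3 genes that did not pass the filter on low signal were Cox7b2, Cox8c and Uqcrq. Between kidney cortex and the lungs, 64 of the 76 genes were higher in cortex and 2 lower, where 11.9% of all probes were called higher in cortex, 12.8% lower and 24.7% in either direction. The median difference of the 76 genes was 1.30, against 0.00 over all probes. Between kidney cortex and spleen, 60 genes were higher in cortex and 0 lower (14.6% of all probes called higher, 15.8% lower and 30.4% in either direction, median of the genes 1.10). Between kidney cortex and liver, 49 were higher in cortex and 0 lower (11.2%, 8.67% and 19.9%, median 0.81).

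Kidney medulla gave similar counts. Of the 76 genes, 65 were higher in medulla than in the lungs and 2 lower, where 12.1% of all probes were called higher, 12.6% lower and 24.7% in either direction. Against the spleen 62 were higher in medulla and 1 lower (14.6%, 16.2% and 30.9%), and against the liver 52 were higher and 0 lower (11.8%, 9.22% and 21.0%). Between cortex and medulla 0 of the 76 genes were called, where 0.723% of all probes were called higher in cortex, 1.30% lower and 2.02% in either direction, and the median difference was 0.00. At an unadjusted p under 0.05 in limma, 6 of the 76 genes differed between cortex and medulla, against 13.9% of all probes. The liver exceeded the lungs in 32 genes and was lower in 5 (13.3% of all probes called higher and 16.7% lower), and it exceeded the spleen in 20 genes and was lower in 2 (13.7% and 18.3%). Between the lungs and spleen, 4 genes were higher and 9 lower in the lungs, with 10.9% of all probes called higher and 10.9% lower. The 4 higher in the lungs were the complex IV genes Cox4i2, Cox6a2, Cox7a1 and Cox8b, and the 9 lower were Atp5c1, Atp5g1, Atp5pb, Cox5a, Cox5b, Cox7a2l, Cox7c, Ndufb6 and Ndufs8.

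Complex I, which oxidises NADH, followed this order, with 31 of 34 genes called higher in cortex than in the lungs, 31 higher than in the spleen and 20 higher than in the liver. The accessory subunit gene Ndufb6 had the widest span of the complex among its genes above background in all 5 control tissues. Its control replicates were 12.59, 12.64 and 12.68 in kidney cortex, 12.57, 12.59 and 12.56 in kidney medulla, 11.76, 11.61 and 11.77 in liver, 10.06, 9.86 and 10.25 in lungs, and 10.76, 10.96 and 10.63 in spleen. No replicate of either kidney part overlapped another tissue. Ndufb6 was 2.58 ± 0.099 (SE) higher in cortex than in the lungs (limma adjusted p = 1.08e-10). Ndufa12, another accessory subunit, had mean signals of 11.89 in cortex, 11.96 in medulla, 10.87 in liver, 9.88 in lungs and 10.11 in spleen (cortex against lungs 2.02 ± 0.11, adjusted p = 3.21e-09). Among the same genes, the smallest span was that of Ndufb11, from 7.30 in lungs to 7.76 in medulla, which was not called (0.46 ± 0.15, adjusted p = 0.0200). With background subtracted the same difference became 0.82 and was called.

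Complex II links the tricarboxylic acid cycle to the chain, and its 3 measured genes had a median of 0.95 above their own mean in cortex and -1.10 in lungs. Sdhb encodes the iron-sulfur subunit. Its replicates were 11.97, 11.79 and 11.69 in cortex, 11.79, 11.84 and 11.76 in medulla, 10.97, 11.10 and 11.15 in liver, 9.52, 9.13 and 9.36 in lungs, and 9.60, 9.87 and 9.93 in spleen. The kidney parts overlapped each other but no other tissue, and the liver stood between them and the lower pair. Sdhb differed by 2.48 ± 0.11 between cortex and lungs (adjusted p = 5.00e-10), and Sdhc, a membrane anchor subunit, by 2.06 ± 0.096 (adjusted p = 7.64e-10). Sdhd, the other membrane anchor, was also higher in cortex than in the lungs (1.55 ± 0.23, adjusted p = 6.54e-05), but not different from the liver beyond its spread (0.14, adjusted p = 0.686). All 3 genes were called higher in the liver than in the lungs and in the spleen.

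In complex III, which passes electrons to cytochrome c, 6 of 7 tested genes were called higher in cortex than in the lungs and 5 higher than in the liver. Uqcrc1, a core protein gene, had replicates of 11.82, 12.10 and 11.96 in cortex, 11.82, 11.90 and 11.99 in medulla, 10.64, 11.05 and 10.89 in liver, 9.96, 9.84 and 9.64 in lungs, and 10.23, 10.51 and 10.03 in spleen. It was 2.15 ± 0.13 higher in cortex than in the lungs (adjusted p = 1.59e-08). Uqcrc2, the other core protein gene, differed by 1.71, from 13.00 in cortex to 11.29 in lungs. Uqcrh, the hinge protein gene, had the smallest span of the complex among its genes above background in all 5 control tissues, with 13.63 in cortex, 13.66 in medulla, 12.62 in liver, 12.59 in lungs and 13.06 in spleen.

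Complex V, the ATP synthase, had 14 of 16 genes called higher in cortex than in the lungs and 10 higher than in the liver. The 3 genes that encode the identical mature c subunit of its membrane rotor differed in their span. Atp5g1 had replicates of 12.73, 12.60 and 12.46 in cortex, 12.69, 12.87 and 12.75 in medulla, 11.85, 11.96 and 11.58 in liver, 10.39, 10.20 and 10.15 in lungs, and 10.91, 11.07 and 10.83 in spleen, which gave 2.52 ± 0.11 between medulla and lungs (adjusted p = 3.89e-10). Atp5g2 spanned only 0.93, from 9.74 in lungs to 10.66 in medulla, and Atp5g3 spanned 1.20, from 13.37 in lungs to 14.56 in cortex. Atp5g3 reached 14.76, the top of the signal range, and 13 respiratory chain genes came within 1 log2 unit of it on some array. The part of this ceiling in their smaller spans was not tested. Atp5pb, a subunit of the peripheral stalk, ranged from 9.48 in lungs to 11.68 in medulla, and Atp5j2 had the smallest span among the genes of the complex above background in all 5 control tissues, 0.86.

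**Figure D2:**
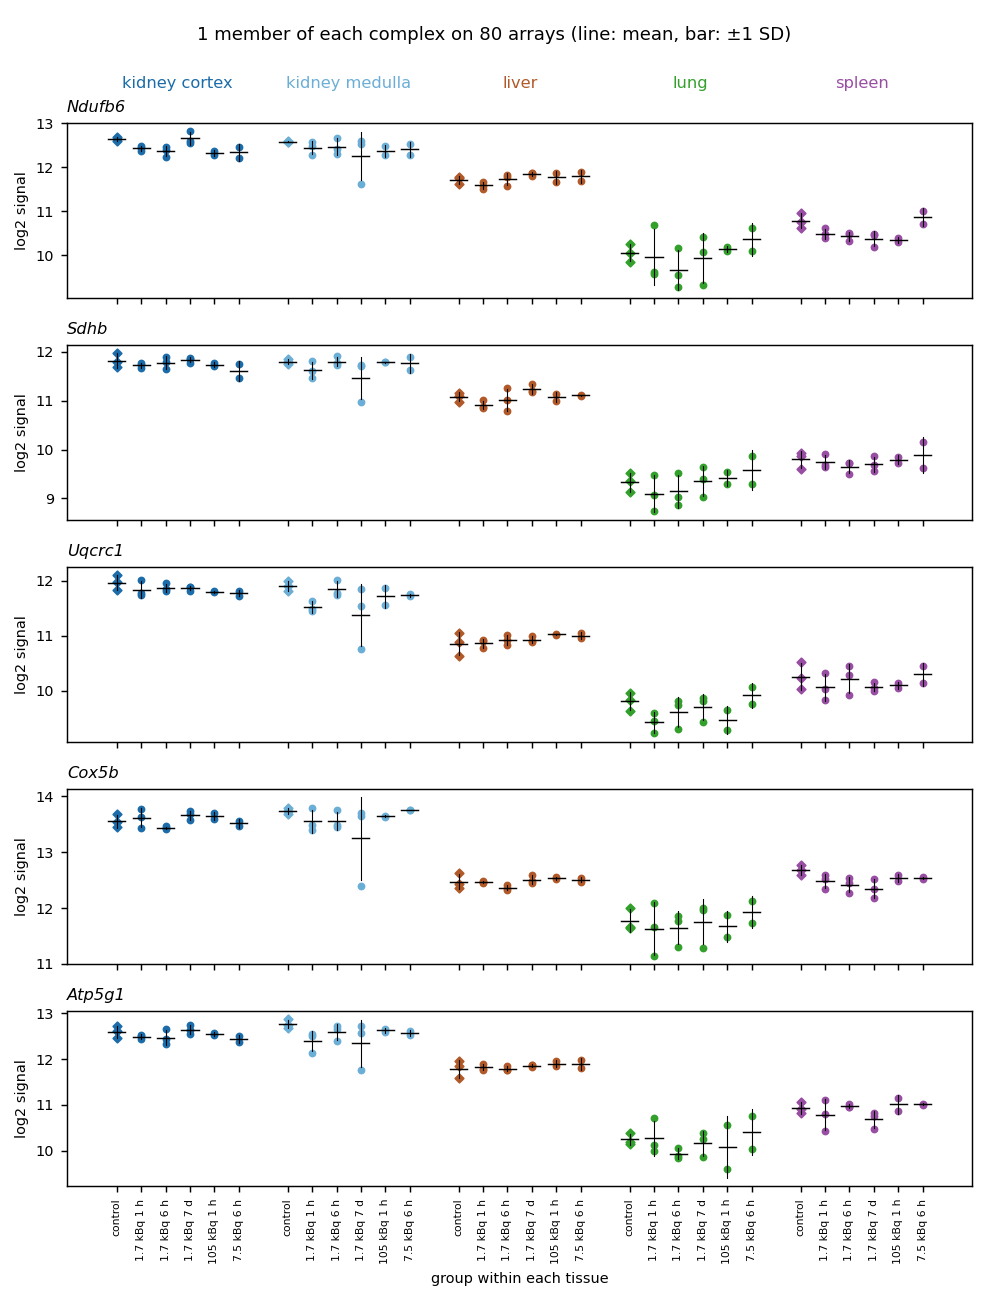
Log2 signal of Ndufb6 (complex I), Sdhb (II), Uqcrc1 (III), Cox5b (IV) and Atp5g1 (V) on all 80 arrays, by tissue and group, with diamonds for control arrays and, in each group, a line for the mean and a bar for ± 1 SD (n = 2 or 3). For Ndufb6, the control arrays of the kidney lie at 12.56 to 12.68 and those of the lungs at 9.86 to 10.25.

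Complex IV, cytochrome c oxidase, was split. Of 16 tested genes, 10 were called higher and 2 lower in cortex than in the lungs, and 4 were called higher and 5 lower in the liver than in the lungs. Cox5b, a nuclear-encoded subunit found in all tissues, behaved like the other complexes. Its replicates were 13.54, 13.68 and 13.45 in cortex, 13.68, 13.79 and 13.73 in medulla, 12.37, 12.42 and 12.63 in liver, 12.01, 11.66 and 11.64 in lungs, and 12.69, 12.77 and 12.59 in spleen (medulla against lungs 1.96 ± 0.10, adjusted p = 3.02e-09). The genes that went against the direction of the other members in at least 1 pair were Cox4i2, Cox6a2, Cox6b2, Cox7a1, Cox7a2l and Cox8b, each an isoform or paralogue of another subunit gene.

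Cox4i2 encodes the isoform of subunit 4 known from the lungs, while Cox4i1 is its ubiquitous counterpart. The Cox4i2 replicates in control lungs were 7.96, 7.97 and 7.97, and the probe was not above background on any control array of the other tissues. This gave at least a 2.16-fold higher signal in the lungs, the brighter mean being set against the background cutoff where the dim signal lay under it (liver against lungs, limma adjusted p = 1.49e-10). Over all 80 arrays the lungs ranged from 7.77 to 8.14 and no other array exceeded 6.91. Cox4i1 was highest in the kidney, with 13.93 in cortex and 13.97 in medulla, and stood at 12.64 in liver, 12.79 in lungs and 12.93 in spleen.

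Cox6a2, Cox7a1 and Cox8b encode the isoforms of subunits 6a, 7a and 8 known from heart and skeletal muscle, and the latter pair are also expressed in brown fat. Cox6a2 was at 10.43, 9.88 and 9.29 in control lungs, where the liver mean was 6.75 and not above background, a difference of at least 8.07-fold (adjusted p = 6.81e-08). Its ubiquitous counterpart Cox6a1 was lowest in the lungs, at 11.48 against 13.14 in cortex. Cox7a1 was 10.33, 10.34 and 9.84 in cortex, 10.02, 9.99 and 9.75 in medulla, 7.47, 7.10 and 7.32 in liver, 8.96, 8.39 and 7.69 in lungs, and 7.04, 6.89 and 6.82 in spleen. It was thus higher in cortex than in the spleen by 3.25 ± 0.24 (adjusted p = 7.83e-08) and also higher in the lungs than in the spleen (1.43). Its counterpart Cox7a2 was lowest in the lungs and spleen, at 8.64 and 8.75.

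Cox8b showed the widest scatter within a group. Its control replicates were 11.44, 11.22 and 8.90 in cortex, 8.912, 9.155 and 8.999 in medulla, and 9.643, 8.661 and 8.002 in lungs, and it was not above background in the spleen. Cortex replicates fell into a high pair and 1 value at the medulla level, and the cortex mean was at least 12.6-fold above the spleen (adjusted p = 3.21e-05). Cortex and medulla did not differ in the test (1.496 ± 0.528, adjusted p = 0.168). Without cortex control replicate 3, the difference was 2.31 ± 0.32 (adjusted p = 0.000877). Cox8a, the ubiquitous isoform, was even within groups, with means of 13.60 in cortex, 13.58 in medulla, 12.10 in liver, 12.13 in lungs and 12.38 in spleen.

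Other paralogues also departed from the general order. Cox6b2, known as the testis isoform of subunit 6b, was highest in the spleen (8.08) and lowest in the liver (6.86, at the background cutoff). Liver was below spleen by 1.22 ± 0.15 (adjusted p = 1.04e-05). A second Cox6b2 probe did not show this order and lay near the cutoff, with control means of 6.80 in spleen and 6.87 in liver. Cox6b1 was highest in medulla (13.24) and lowest in the lungs (11.63). Cox7a2l, which takes part in joining complexes III and IV into supercomplexes, was highest in the spleen (11.09) and lower in the liver (10.30, difference -0.79 ± 0.11, adjusted p = 2.57e-05). Ndufa4, now known as a complex IV subunit but grouped here with complex I by its symbol, followed the common order, from 13.83 in medulla to 12.51 in lungs. Cox7b varied widely within groups, with replicates of 11.37, 9.42 and 9.69 in cortex and 10.71, 9.99 and 9.81 in liver. Control replicate 1 was the highest for Cox7b in all 5 tissues.

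The muscle isoforms varied with marker genes of heart muscle or fat, and the source of these marker transcripts in the samples was not tested. Over the 16 lung arrays, Cox6a2 ranged from 9.21 to 10.98, Cox7a1 from 7.42 to 9.70 and Cox8b from 7.58 to 10.09, while Myl7, an atrial myosin light chain, ranged from 7.44 to 11.27. Pearson's r with Myl7 was 0.92 for Cox6a2, 0.94 for Cox7a1 and 0.90 for Cox8b, but -0.05 for Cox4i2 (n = 16 arrays that share the tissue and the normalisation). The fat marker Adipoq, which encodes adiponectin, gave 0.73 for Cox6a2, 0.82 for Cox7a1 and 0.87 for Cox8b on the same arrays. Of the 13 heart muscle genes, 8 to 11 were above background in the lungs, with a mean log2 signal of 7.20 to 9.19, against 6.71 to 7.04 in the other tissues. Over the 16 cortex arrays, Cox8b ranged from 7.30 to 11.83 and Cidea, a lipid droplet gene of brown fat, from 6.90 to 10.69, with r = 0.97 (Spearman's rho 0.95). The r of Cox8b with Ucp1, the brown fat uncoupling protein, was 0.83 and with Adipoq 0.82. For Cox7a1 the r with Cidea was 0.80, but rho was 0.54, and the r was 0.68 with Ucp1 and 0.53 with Adipoq. Of the 7 brown fat genes, 2 to 5 were above background in cortex, with a mean of 7.14 to 8.56. In medulla the r with Cidea was 0.73 for Cox8b and 0.54 for Cox7a1 over 15 arrays, the liver-like array being left out. The part of heart muscle or fat in these levels was not tested.

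**Figure D3:**
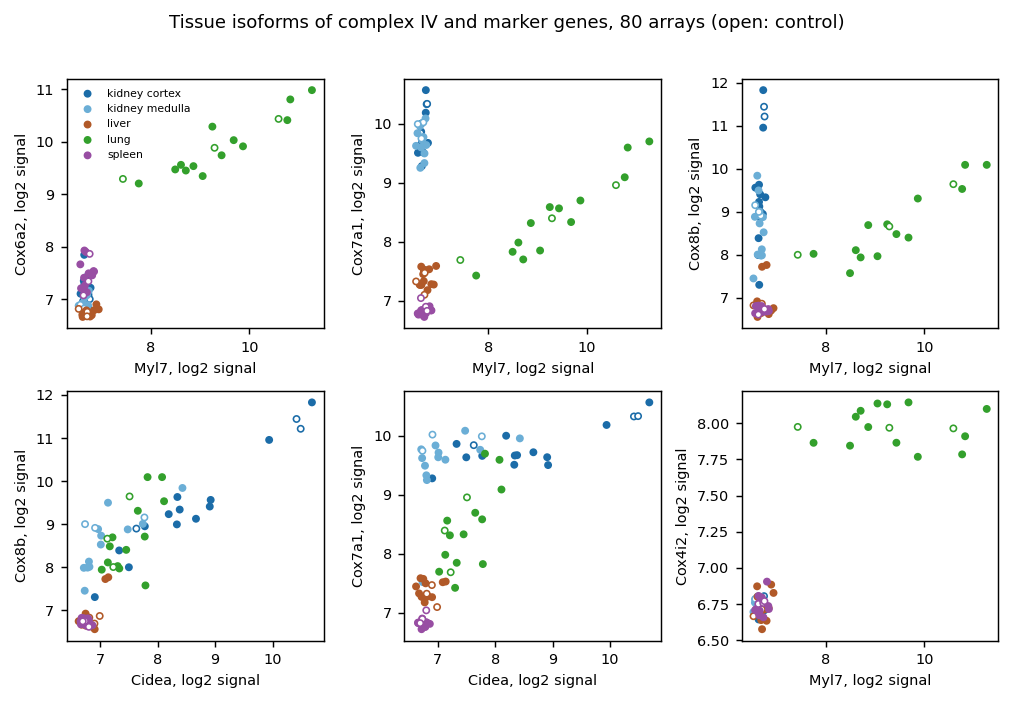
Each point is 1 array, with log2 signal of a complex IV isoform gene on the vertical axis and of a marker gene on the horizontal axis, by tissue, open symbols for control arrays. Cox6a2, Cox7a1 and Cox8b rise with Myl7 in lungs (r = 0.92, 0.94 and 0.90), Cox4i2 does not (r = -0.05), and Cox8b rises with Cidea in kidney cortex (r = 0.97).

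After 211At, 0 of the respiratory chain genes were called in any of the 25 comparisons of an exposed group with the controls of its tissue. In kidney cortex 75 genes were tested, and 0.221% of all probes were called at 1.7 kBq 1 h, 0.0291% at 1.7 kBq 6 h, 0% at 1.7 kBq 7 d, 0.192% at 105 kBq and 0.0991% at 7.5 kBq. In the liver, with 75 genes tested, the shares were 1.16%, 0.577%, 0.0371%, 0.958% and 1.12% in the same order. In the lungs, with 75 genes, they were 0.0722%, 0%, 0%, 0.0602% and 0.0180%. In medulla, with 75 genes, and in the spleen, with 73, a share above 0% was seen only at 1.7 kBq 1 h, with 0.0172% and 0.00579%. At these shares, a count of 0 among 75 genes is near the background. They are from fits with all arrays, in which the groups of a tissue share 1 estimate of the spread. Without the liver-like array, 13 of 17025 medulla probes were called at 1.7 kBq 6 h, 38 at 105 kBq, 17 at 7.5 kBq and 0 at 7 days. Without the array with pancreas transcripts, 8 of 17167 spleen probes were called at 105 kBq. The count of respiratory chain genes called stayed at 0.

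With the fold threshold left out and an adjusted p under 0.05, 2 genes passed, Ndufv3 in cortex at 1.7 kBq 6 h, where 0.221% of all probes did, and Ndufa8 in the liver at 105 kBq, where 4.02% did. At an unadjusted p under 0.05 in limma, 144 of the 1865 gene and comparison pairs passed, which is 7.72%, against 9.39% of all probes. The median change of the genes lay between -0.30 and 0.04 in the 25 comparisons and was below 0 in 21 of them. The median over all probes lay between -0.019 and 0.0084 and was also below 0 in most of them. Comparisons of the same tissue share their control arrays. The median standard error of a gene was 0.10 in cortex, 0.21 in medulla, 0.095 in liver, 0.17 in lungs and 0.14 in spleen, so that a 95% interval reached 0.22, 0.45, 0.20, 0.38 and 0.31 to either side. The medulla values are from the fit that holds the liver-like array. The estimated change stayed within 1.5-fold in all 5 exposures for 70 of 75 genes in cortex, 70 of 75 in medulla, 72 of 75 in liver, 72 of 75 in lungs and 72 of 73 in spleen. The exceptions were Atp5e, Cox7a1, Cox7b, Cox8b and Ndufb4 in cortex, Atp5l, Atp5pb, Cox7a1, Cox8b and Sdhd in medulla, Atp5e, Atp5k and Cox7b in the liver, Cox7c, Ndufb4 and Uqcrb in the lungs, and Ndufb4 in spleen. The Cox8b controls in cortex had an SD of 1.41. The counts use 1 probe per gene. In the liver, an unused Sdhc probe had means of 8.18 in controls, 6.82 at 105 kBq and 6.74 at 7.5 kBq. At 1.7 kBq 1 h its replicates were 7.15, 8.28 and 6.90. An unused Atp5j probe had 8.07, 7.00 and 6.92, but another unused Atp5j probe 8.77, 8.66 and 8.87. Some of these values lie near the background cutoff, and unused probes after exposure were not tested here.

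**Figure D4:**
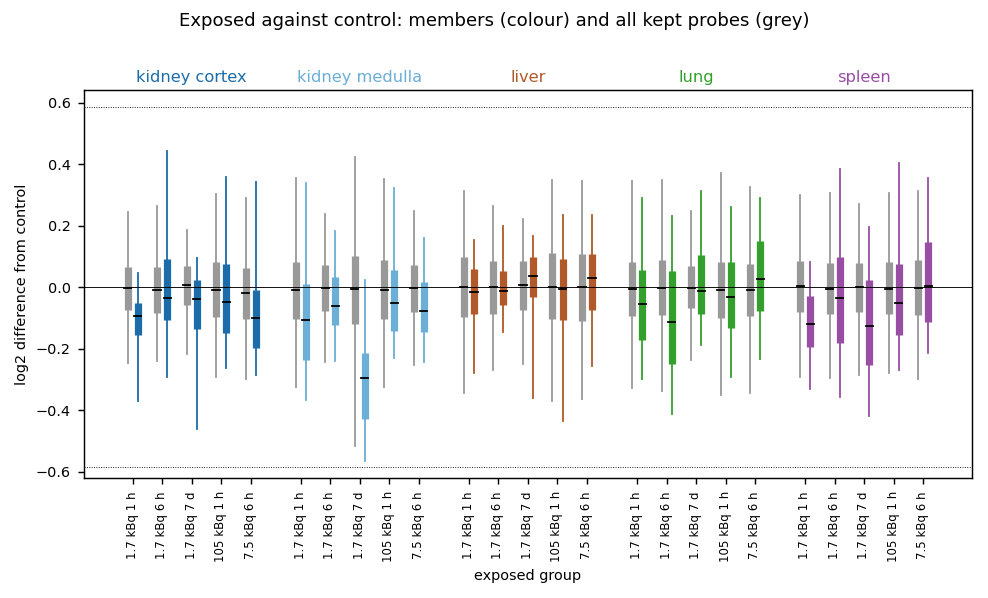
For each of the 25 comparisons of an exposed group with its controls, the log2 difference is drawn for all kept probes (grey) and for the respiratory chain genes (colour), with a black line at the median, a thick bar for the quartiles and a thin line from the 5th to the 95th percentile. Dotted lines mark a 1.5-fold change, and the medians of the respiratory chain genes lie between -0.30 and 0.04.

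Ndufv3, an accessory subunit of the NADH-oxidising module of complex I, was the gene with the lowest adjusted p. In kidney cortex its control replicates were 11.96, 12.04 and 11.89, and 6 h after 1.7 kBq they were 11.64, 11.62 and 11.65. The groups did not overlap, and the difference was -0.32 ± 0.054 (limma adjusted p = 0.0278). At 6 h after 7.5 kBq the values were 11.68 and 11.67 (-0.29, adjusted p = 0.0701), the first being the array with hepatocyte transcripts, without which no respiratory chain gene at 7.5 kBq had an adjusted p under 0.485. At 7 days the values were 11.87, 11.96 and 11.91, which overlapped the controls. No change of Ndufv3 reached 1.5-fold. Further complex I genes had the next lowest p in cortex, Ndufb6 at 105 kBq (-0.32 ± 0.098, adjusted p = 0.168) and Ndufs7, an iron-sulfur subunit, at 7.5 kBq (-0.28 ± 0.086, adjusted p = 0.225). Without the array with hepatocyte transcripts, the Ndufs7 difference was -0.28 (adjusted p = 0.903).

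In the liver, Ndufa8, an accessory subunit of complex I, had control replicates of 11.33, 11.29 and 11.26 and values of 11.77 and 11.67 after 105 kBq. The groups did not overlap, and the difference was 0.42 ± 0.10 (adjusted p = 0.0300). After 1.7 kBq at 1 h the values were 11.82, 11.61 and 11.40 (0.32, adjusted p = 0.0651), and at 7 days the difference was 0.11. Cox7b, a small subunit of complex IV, had liver controls of 10.71, 9.99 and 9.81 and values of 8.98 and 9.17 after 105 kBq (-1.10 ± 0.30, adjusted p = 0.0534). Atp5k, the e subunit of the ATP synthase, had controls of 8.31, 7.92 and 7.89 and values of 7.15 and 7.33 after 105 kBq (-0.80 ± 0.23, adjusted p = 0.0634). With the replicate number as a block, the Cox7b difference was called (-1.26 ± 0.22, adjusted p = 0.00805).

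In kidney medulla, Ndufb7, an accessory subunit of complex I, had controls of 9.63, 9.62 and 9.56 and values of 8.97, 9.28 and 9.30 at 7 days after 1.7 kBq (-0.42 ± 0.099, adjusted p = 0.501), the lowest being the liver-like array. Ndufa9 at 7 days (-0.55 ± 0.19, adjusted p = 0.501) and Cox6a2 at 7.5 kBq (0.30 ± 0.094, adjusted p = 0.915) followed. Without that array, the values were -0.32 for Ndufb7 (adjusted p = 0.594), -0.28 for Ndufa9 (adjusted p = 0.685) and 0.30 for Cox6a2 (adjusted p = 0.290). In the lungs, Cox7c, a small subunit of complex IV, had controls of 12.08, 12.05 and 11.67 and values of 11.25, 11.50 and 11.28 at 6 h after 1.7 kBq (-0.59 ± 0.20, adjusted p = 0.512). The next were Uqcr11 at 105 kBq (-0.27 ± 0.091, adjusted p = 0.304) and Atp5e at 7.5 kBq (-0.42 ± 0.15, adjusted p = 0.488). Without the lung array of the same group that is named above, Uqcr11 differed by -0.32 (adjusted p = 0.380) and Atp5e by -0.43 (adjusted p = 1.00). In the spleen, Ndufs7 had controls of 10.65, 10.87 and 10.99 and values of 11.19, 11.20 and 11.17 at 6 h after 1.7 kBq (0.35 ± 0.095, adjusted p = 0.486). Ndufb6 differed by -0.41 ± 0.11 at 7 days (adjusted p = 0.838), or by -0.45 without the array with pancreas transcripts (adjusted p = 0.743), and Atp5pb by -0.55 ± 0.16 at 6 h (adjusted p = 0.494). None of these differences passed the test.

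Small shifts of the whole set were below the size at which single genes were called. In kidney cortex 1 h after 1.7 kBq, 65 of 75 genes were lower than in the controls, with a median of -0.095. When each array was left out in turn, this median lay between -0.13 and -0.052, the latter without control replicate 1. Of all probes, 51.5% were lower in that comparison and 56.6% at 7.5 kBq 6 h. At 1.7 kBq 1 h, 6 genes passed an unadjusted p under 0.05 in limma, which is 8% against 9.83% of all probes. The other cortex exposures gave smaller medians. At 105 kBq 46 genes were lower (median -0.048), at 1.7 kBq 6 h 45 (-0.035) and at 7 days 46 (-0.039). Of all probes, 52.7%, 53.7% and 46.3% were lower there. At 7.5 kBq 6 h, 58 of 75 were lower (median -0.10), and 13 genes passed an unadjusted p under 0.05, which is 17.3% against 11.6% of all probes. Without the array with hepatocyte transcripts 59 genes were lower (median -0.11), but 2 genes passed, against 5.27% of all probes. Without the other 7.5 kBq array 22 did, against 16.4%, and without control replicate 2 the count was 7, against 8.81%. The excess over all probes in that group thus depended on single arrays.

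In the spleen the direction was not shared by all exposures. After 1.7 kBq, 59 of 73 genes were lower at 1 h (median -0.12), 45 at 6 h (median -0.036) and 52 at 7 days (median -0.12). At 105 kBq 41 were lower (median -0.050), and at 7.5 kBq 34 were lower and 39 higher (median 0.0050). Of all probes, 49.1%, 51.5%, 50.2%, 51.6% and 51.2% were lower in these groups, in the order named. Genes at an unadjusted p under 0.05 numbered 19 of 73 at 7 days (26.0%, against 5.74% of all probes) and 15 at 6 h (20.5%, against 7.82%). Without the array with pancreas transcripts 57 genes were lower at 7 days (median -0.15), and the count was 11, against 6.495% of all probes. It was 9 without replicate 3 of that group, against 3.38%. Among the controls, it was 8 without control replicate 1 (3.11% of all probes), 11 without control replicate 2 (3.98%) and 23 without control replicate 3 (12.2%). At 6 h the count ran from 7 without control replicate 2, against 7.40% of all probes, to 23 without control replicate 3, against 11.1%. It was 9 without control replicate 1 and 9 without replicate 1 of the 6 h group. The 6 h median became -0.10 without replicate 1 of that group and -0.11 without control replicate 3. Genes of 1 set are not independent replicates, and no test was made of these shifts.

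In kidney medulla the size of the shift at 7 days rested on 1 array. At that time 68 of 75 genes were lower with a median of -0.30, and without the liver-like array 55 were lower with a median of -0.072. The groups of the other exposures do not hold that array, but their tests share the spread of the fit with it. In them 52 genes were lower 1 h after 1.7 kBq (median -0.11), 53 at 6 h (-0.062), 53 at 7.5 kBq (-0.077) and 48 at 105 kBq (-0.050). Of all probes, 51.8% were lower at 7 days with all arrays, and 51.0% to 53.2% in the other exposures. In the 1.7 kBq 1 h comparison 69 probes (0.405%) were called without that array and 3 with it. Of the 75 respiratory chain genes 25 had an unadjusted p under 0.05 without it, against 20.5% of all probes, and 4 with it, against 10.4%. None of the 75 was called, and Ndufb7 (-0.35 ± 0.078, adjusted p = 0.0316), Ndufc2 (-0.32, adjusted p = 0.0458) and Ndufa8 (-0.31, adjusted p = 0.0498) passed an adjusted p under 0.05, as 3.86% of all probes did. In the lungs the median at 7.5 kBq was 0.03, and it was -0.10 without the array with proximal tubule genes. At 105 kBq 44 of 75 genes were lower (median -0.033), where 52.8% of all probes were. Of the 75 genes, 4 passed an unadjusted p under 0.05, against 10.1% of all probes. Without the lung array with hepatocyte transcripts 51 were lower (median -0.11) and 10 passed, against 9.55% of all probes.

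Injected activity and time were also compared among exposed animals. Between 105 and 1.7 kBq at 1 h, and between 7.5 and 1.7 kBq at 6 h, 0 genes were called in each of the 5 tissues, and 0% of all probes were called except in the liver at 1 h (0.00529%). Unadjusted p under 0.05 was reached by 43 of 746 gene and comparison pairs, 5.76%, against 5.73% of all probes. Between 1 h or 6 h and 7 days at 1.7 kBq, 0 genes were called as well, where in cortex 0.122% and 0.0408% of all probes were called, 0.397% and 0.138% in liver, 0.0120% and 0% in lungs, 0.0116% and 0% in spleen, and 0% at both times in medulla. In these comparisons 65 of 746 pairs passed an unadjusted p under 0.05 (8.71%, against 9.96%). Of these pairs 24 came from the comparison of 6 h with 7 days in cortex, where 24 of 75 genes passed (32.0%, against 18.3% of all probes), 16 of them higher and 8 lower at 6 h. That count lay between 17 and 27 when each cortex array was left out in turn. The lowest adjusted p of a gene was 0.0505. An F test of limma over the 80 arrays asked whether the effect of an exposure differed between tissues. It called 0 of 77 genes in each of the 5 exposures, where 0.486% of 22447 probes were called at 1.7 kBq 1 h, 0.249% at 1.7 kBq 6 h, 0.0178% at 1.7 kBq 7 d, 0.472% at 105 kBq and 0.472% at 7.5 kBq. The lowest adjusted p among the genes was 0.101, for Ndufa8 at 1.7 kBq 1 h.

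Among animals of the same group, probes of some respiratory chain genes varied together. After the medulla, cortex and spleen groups that hold the arrays named above were left out, 72 arrays in 27 groups remained, and the median SD within groups was 0.169 for the respiratory chain genes and 0.118 for all probes. The SD ranged from 0.060 to 0.746, with Cox8b highest, followed by Cox7b (0.470), Cox7a1 (0.429) and Ndufb4 (0.413). The deviations of 11 of 76 genes from their group means correlated with those of Cox7b at r above 0.5, which is 14.5%, against 2.59% of all probes. They were Atp5k (0.78), Ndufb4 (0.76), Atp5e (0.75), Ndufb2 (0.75), Ndufb5 (0.74), Ndufb9 (0.74), Sdhd (0.72), Atp5a1 (0.69), Cox6c (0.65), Ndufb10 (0.54) and Atp5h (0.54). Probes of the same gene did not always go together. Unused probes of Ndufa5 (0.76), Ndufs4 (0.71), Sdhb (0.65), Atp5j (0.65) and Sdhc (0.59) also exceeded 0.5. The probes used for these genes gave -0.04, 0.32, 0.27, 0.11 and 0.08, and the remaining unused probes lay below 0.5. Cox7b was chosen for this after its spread was seen, the arrays share their normalisation, and some may come from the same animal. Cox7b and Atp5k, the liver genes with the lowest p among those that were lower at 105 kBq, belong to this group. The part of that variation in their difference was not tested.

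**Figure D5:**
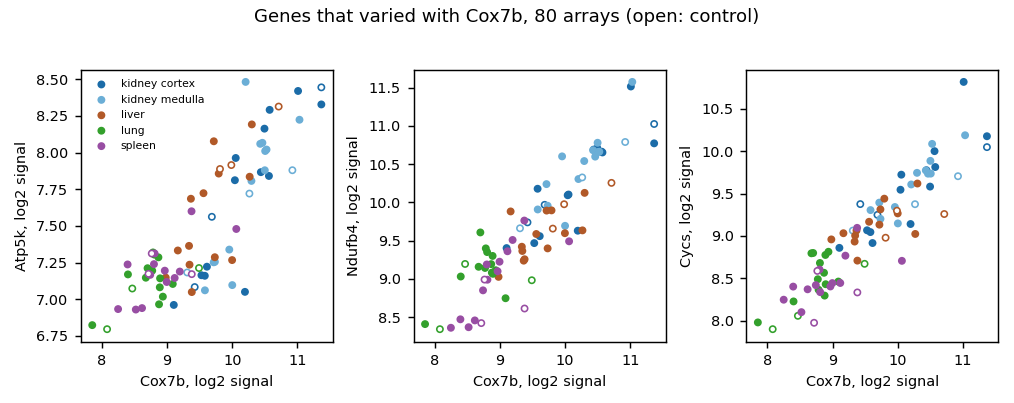
Log2 signal of Atp5k, Ndufb4 and Cycs against that of Cox7b on the same array, for all 80 arrays, by tissue, open symbols for controls. Group means are not removed, so differences between tissues are part of the plot. The deviations from group means over 72 arrays, which are not drawn, gave r with Cox7b of 0.78 for Atp5k and 0.76 for Ndufb4.

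Other mitochondrial genes were counted in the same fits. Of all probes, 11.9% were called higher in cortex than in the lungs and 11.2% higher than in the liver. In the control tissues, the tricarboxylic acid cycle enzymes were also high in the kidney, with 16 of 17 genes called higher in cortex than in the lungs (median 1.62) and 14 higher than in the liver (0.87). Idh3g, a subunit of NAD-dependent isocitrate dehydrogenase, was 1.92 higher in cortex than in the liver, and Fh1, fumarase, was 2.23 higher in medulla than in the lungs. Mitochondrial ribosomal proteins were called higher in cortex than in the lungs in 46 of 70 genes (median 0.76) and higher than in the liver in 7 (median 0.10). Of 39 assembly factors of the chain, 24 were higher and 1 lower in cortex than in the lungs and 4 higher than in the liver. For these 2 lists the counts against the liver are near the share of all probes and are no result about the lists. The difference between these lists and the chain was not tested. Of 14 genes for electron carriers and nucleotide exchange, 10 were higher in cortex than in the lungs (median 1.67), and of 25 regulators of mitochondrial biogenesis 8 were (median 0.17). Esrra, an orphan nuclear receptor that drives respiratory genes, was 1.70 higher in medulla than in the liver.

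After 211At, 4 genes of these lists were called, all of them in the liver. There the 5 lists held 167 tested entries, of which 2 (1.20%) were called at 1.7 kBq 1 h, where 1.16% of all probes were, 3 (1.80%) at 7.5 kBq, where 1.12% were, 1 each at 1.7 kBq 6 h and 105 kBq, and 0 at 7 days. These shares are near the background and are no result about the lists, and the genes are given for their own values. Ndufaf4, an assembly factor of complex I, had control replicates of 9.01, 9.12 and 9.15. It rose to 9.87, 9.71 and 9.93 at 1 h (0.74 ± 0.089, limma adjusted p = 0.000271) and to 9.76, 9.83 and 9.98 at 6 h after 1.7 kBq (0.77, adjusted p = 0.000349). The values were 9.83 and 9.91 after 105 kBq (0.78 ± 0.10, adjusted p = 0.000562) and 10.06 and 10.25 after 7.5 kBq (1.06, adjusted p = 6.07e-05). At 7 days they were 9.50, 9.49 and 9.30, still above every control but not called. The exposed groups share the 3 control arrays. Ppargc1a, a coactivator of mitochondrial biogenesis, rose from 7.67, 8.06 and 8.11 to 9.04, 8.64 and 8.90 at 1 h after 1.7 kBq (0.91 ± 0.16, adjusted p = 0.00472). Esrra rose from 8.70, 8.84 and 8.89 to 9.52 and 9.60 after 7.5 kBq (0.74 ± 0.12, adjusted p = 0.00207), and Fh1 from 10.57, 10.72 and 10.75 to 11.51 and 11.95 (1.05 ± 0.18, adjusted p = 0.00354). Ppargc1a, Esrra and Fh1 were not called in the other liver exposures. Mean Ppargc1a was 8.66 at 105 kBq, 8.46 at 1.7 kBq 6 h, 8.24 at 7.5 kBq and 8.11 at 7 days, against 7.95 in controls. At 1.7 kBq 1 h, 6 h, 7 days and 105 kBq, mean Esrra was 9.21, 9.31, 9.12 and 9.12 (controls 8.81). Mean Fh1 was 11.26, 11.34, 10.97 and 11.39 (controls 10.68).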

How the data were processed

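RNA of each tissue was hybridised to Illumina MouseRef-8 BeadChips. Per the paper's methods, the authors quantified signals and quantile normalised them with Illumina software and BASE, and used Nexus Expression 2.0 thereafter. For the first 2 programs the version is not given in the sources used here. Values as deposited are intensity values; they are linear, still contain background and have nearly equal distributions on all 80 arrays. A table of signals before normalisation (80 signal and 80 detection columns) was not used, because its column names are not paired with samples.

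Log2 of the deposited intensities was fitted with limma 3.58.1 in R 4.3.3, with 1 fit per tissue of 6 group means, and 1 fit of the 15 control arrays for the tissue pairs. Probes were kept when at least 2 arrays of the fit exceeded a background cutoff set from the distribution of all values under their mode, and Benjamini-Hochberg adjustment ran over all kept probes. The call threshold (0.01 and 1.5-fold) is that of the methods. Alternatives covered the filter, the normalisation, background subtraction, the prior, the threshold, probe choice, the replicate block, arrays left out and the samples in the fit. P-values measure the spread between these animals, and tissues of 1 animal were treated as independent. The calling was tested on simulated data: of 50 probes changed 2-fold in the liver at 1.7 kBq 1 h (18891 probes) 42 were recovered, and 16 of 50 changed 1.5-fold. Recovery was lowest in kidney medulla at 105 kBq (n = 2), with 28 of 50 at 2-fold and 6 of 50 at 1.5-fold. A call needs an estimate of 1.5-fold or more, so a true change of 1.5-fold is missed whenever its estimate is lower, at any precision. The simulated medulla spread includes the liver-like array.

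Gene symbols were the platform's, updated by gene number, and 1719 probes without a symbol were counted but not named. Named were, for each tissue, the 3 genes of lowest p where none was called, the genes of widest and narrowest control span per complex, the isoform, paralogue and Sdh genes, and up to 3 called genes of each related list. Ndufb4 and the other genes of the covariation with Cox7b were named by their values. The members and lists were chosen with earlier results of these data known.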

Additional observations from a re-analysis of the deposited data

How the results depend on the processing

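Over 3145 values recomputed under the alternatives, 0 changed direction. These include counts of called genes, which have no direction. Values of named genes made up 417 of them after exposure and 756 between tissues. With an adjusted p under 0.05 and no fold threshold, 1 gene passed in cortex and 1 in the liver after exposure, and among control pairs the counts rose to 57 for liver against lungs (37 at the main threshold), 42 for liver against spleen (22) and 31 for lungs against spleen (13). With the replicate number as a fixed block, 1 liver gene was called (Cox7b at 105 kBq 1 h, adjusted p = 0.00805), and no other count moved by over 1.5 times. Same-numbered samples correlated between -0.33 and 0.64, and not every pair exceeded 0.1, so the numbers were read as names only. Their median still exceeded that of other numbers in every set but the kidney cortex groups. It was 0.15 against -0.09 among control tissues, where 19 of 30 pairs exceeded 0.1. Among lung groups it was 0.27 against -0.08, and among cortex groups -0.03 against 0.03. Whether same-numbered samples share an animal or a batch was not tested. With each array left out in turn, all counts after exposure, by activity, by time and between tissues stayed at 0. Among control pairs the counts ranged from 0 to 1 for cortex against medulla (1, Cox8b, without cortex control replicate 3), 47 to 51 for cortex against liver, 64 to 67 against lungs, 58 to 63 against spleen, 45 to 52 for medulla against liver, 63 to 68 against lungs, 59 to 64 against spleen, 33 to 40 for liver against lungs, 19 to 24 for liver against spleen, and 11 to 15 for lungs against spleen. Groups of 2 or 3 arrays and signals near background limit what could be called.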

Other observations

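The other probes of genes with several probes gave a check of the tissue order by different sequences. Of 19 such probes, 18 passed the filter in the control tissues. The 1 that did not pass, the second Cox6b2 probe, had control means of 6.67 in cortex and 6.79 in lungs, both under the background cutoff. All 18 were higher in kidney cortex than in the lungs, and 13 of them were called, where 11.9% of all probes were called higher. Between cortex and spleen 14 were called (14.6% of all probes called higher in cortex). Between cortex and liver 5 were called with 12 higher in cortex (11.2%). Between the lungs and spleen 0 were called, where 10.9% of all probes were called higher and 10.9% lower.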
